A study of Mus musculus with 4 samples.

Results

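Saa3, Lbp, Hp and Lcn2 are 4 acute-phase genes that were followed here in fibroblasts of the mouse aorta, and beside them in macrophages, endothelial cells and smooth muscle cells. They are 4 of the 32285 genes of the count matrices and were matched by symbol. They were selected on measured values, because their fibroblast levels in LysM-DKO relative to WT lay in opposite directions on the 2 diets, so these genotype ratios are given as a description and carry no test. The study sequenced single cells of digested aortas, with 1 library for each of 4 groups, which are called WT normal diet, LysM-DKO normal diet, WT/ApoE-/- western diet and LysM-DKO/ApoE-/- western diet. The groups of the western diet are null for ApoE and those of the normal diet are not labelled so, which means that diet and ApoE genotype cannot be told apart. Their kept barcodes also differed in sex-linked genes: Xist was at 950 CPM (UMIs, that is captured RNA molecules, per 1000000 UMIs of the same barcodes) in both normal diet libraries, and at 0.636 and 0.563 in those of the western diet, whereas the sum of 4 Y-linked genes was 0.0982, 0.132, 185 and 193 CPM in the order of the groups above. The diets are therefore not compared. LysM-DKO is left unexplained in the labels; LysM is the usual name of the lysozyme 2 promoter, which drives Cre recombinase in myeloid cells, and DKO stands for double knockout. Neither the ages nor the number of animals behind a library are given in the labels, so there are no replicates, and every interval below covers counting error only.

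Acute-phase proteins are plasma proteins whose amounts change with infection or injury. The liver makes most of them under the control of interleukin 6 and interleukin 1, through the transcription factors STAT3, C/EBP and NF-kB, and stromal cells can make them locally. Serum amyloid A proteins travel on high-density lipoprotein and can displace its other apolipoproteins; Saa3 is the form made mainly outside the liver in mice. Lbp carries bacterial lipopolysaccharide to Cd14, from which it reaches Tlr4, Hp (haptoglobin) binds free haemoglobin, and Lcn2 (lipocalin 2) binds the iron carriers of bacteria.

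In GRCm38, Saa3 (ENSMUSG00000040026) lies on the minus strand of chromosome 7 from 46711998 to 46715700, and Lcn2 (ENSMUSG00000026822) on the minus strand of chromosome 2 from 32384633 to 32388252. Lbp (ENSMUSG00000016024) lies on the plus strand of chromosome 2 from 158306493 to 158332852, and Hp (ENSMUSG00000031722) on the minus strand of chromosome 8 from 109575128 to 109579172. Sequences before the RefSeq start are shown for Saa3 and Lcn2, the 2 of the 4 genes with a window in the RefSeq table used, for the letters they hold of the factors named above. Each stretch runs from -250 to -61 relative to the RefSeq start (GRCm38.p6), 5′ to 3′ on the strand of the gene, at chr7:46715737-46715926 for Saa3 and chr2:32387800-32387989 for Lcn2, and capitals mark motif matches. The Lcn2 stretch lies within the Lcn2 locus as given above, since GENCODE starts the gene further upstream than RefSeq, and it overlaps 1 annotated exon and no UTR; that of Saa3 lies outside the gene and overlaps none.
Saa3: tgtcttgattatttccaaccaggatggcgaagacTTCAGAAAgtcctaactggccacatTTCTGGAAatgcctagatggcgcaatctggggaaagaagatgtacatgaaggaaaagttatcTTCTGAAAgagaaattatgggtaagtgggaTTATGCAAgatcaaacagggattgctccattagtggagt
Lcn2: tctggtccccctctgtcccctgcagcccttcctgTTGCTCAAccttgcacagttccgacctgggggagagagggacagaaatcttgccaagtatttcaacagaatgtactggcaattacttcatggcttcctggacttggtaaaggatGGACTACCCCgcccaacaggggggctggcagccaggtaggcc
Both strands were searched for the C/EBP letters TTNNGNAA and the stricter TTGCNNNAA, the STAT letters TTCNNNGAA and the stricter TTCCNGGAA, and TATAAA. NF-kB was sought as GGG and CC with any 5 bases between them, and in a stricter form as GGGANTT followed by any base and CC; strict and wide forms overlap. Saa3 held TTNNGNAA 4 times, starting at -216, -191, -129 and -99, and Lcn2 held it once at -216 on the opposite strand, together with the wide NF-kB form from -102 to -93 on the opposite strand. None of the other letters occurred in these stretches. Of 32851 windows of the same length, 31.2% held TTNNGNAA, 35.2% the wide and 0.724% the strict NF-kB form, 6.69% TTGCNNNAA, 5.51% TTCNNNGAA, 0.658% TTCCNGGAA and 8.73% TATAAA, so single matches are common. The matches are descriptions of letters, not sites of binding.

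A unique molecular identifier (UMI) marks 1 captured RNA molecule, and a barcode stands for 1 droplet. In the order WT normal diet, LysM-DKO normal diet, WT/ApoE-/- western diet and LysM-DKO/ApoE-/- western diet, which is kept throughout, a minimum of 1000 UMIs and a maximum of 10% of them mitochondrial left 7758, 8230, 13744 and 8133 barcodes, with a median of 4167, 3404, 2103 and 6761 UMIs. A barcode was taken as a fibroblast with at least 3 UMIs of Pdgfra and Serpinf1 together, which gave 683, 843, 725 and 720 fibroblasts with similar median depths of 4288, 4340, 4521 and 4088 UMIs. Any pair of libraries shared 9 to 41 kept barcodes, at most 0.528% of the smaller library. All 7 fibroblast markers (with Col1a1, Dcn and Lum among them) were detected in the fibroblasts of each library, at a summed level of 24854 to 32618 CPM. The label is less clear in WT/ApoE-/- western diet: its fibroblasts carried 3565 CPM of the cartilage genes Sox9, Acan, Col2a1 and Comp, against 199, 280 and 1233 in the other libraries. Of the fibroblasts, 40.1%, 47.3%, 39.2% and 31% also met the smooth muscle rule. Alb, the liver's defining gene, was at 0 in all 4 libraries, the macrophage list summed to 20.1 to 68.3 CPM, the neutrophil list to 85.4, 3.87, 0 and 0.245 and the adipocyte list to 3.08, 97, 0.206 and 0.

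All 4 genes had their lowest level in fibroblasts of WT normal diet, where Saa3, Hp and Lcn2 had at most 10 UMIs and Lbp 76, and were higher in LysM-DKO normal diet. They had their highest level in WT/ApoE-/- western diet and were lower in LysM-DKO/ApoE-/- western diet. Among 12027 genes with at least 20 UMIs over the normal diet pair, 2.78% were at least 2-fold higher in LysM-DKO; among 12165 in the western diet pair, 3.65% were at least 2-fold lower. All 4 genes were in both sets, as were 0.558% of the 11460 genes tested on both diets, and this count only restates how the genes were chosen. Any opposite pair of ratios in their direction was found for 23.1% of the 11460. In the other directions, 1.63% of genes were at least 2-fold lower in LysM-DKO on the normal diet, 3.16% at least 2-fold higher on the western diet, and 0.122% both. At Saa3, LysM-DKO normal diet and WT/ApoE-/- western diet had overlapping intervals; no other pair of libraries did so for any of the 4 genes.

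Saa3 had 3, 878, 1041 and 90 UMIs in fibroblasts. Its level in CPM was 0.925 (95% exact Poisson interval 0.191 to 2.7), 200 (187 to 214), 214 (201 to 228) and 22.1 (17.8 to 27.1). The normal diet libraries thus hold both the lowest and nearly the highest level of this lipoprotein-associated gene. The log2 ratio of LysM-DKO to WT was 7.53 (6.20 to 10.04) on the normal diet and -3.27 (-3.60 to -2.97) on the western diet; the first rests on 3 UMIs in WT. Saa1 and Saa2 are close copies of each other, and their reads may not be told apart: Saa1 had 1, 16, 8 and 0 UMIs and Saa2 0, 3, 2 and 0.

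Lbp had 76, 654, 1074 and 162 UMIs, which is 23.4 (18.5 to 29.3), 149 (138 to 161), 221 (208 to 235) and 39.8 (33.9 to 46.4) CPM. It was the only one of the 4 genes found in many fibroblasts of WT normal diet, 62 of the 683. Its log2 ratio was 2.66 (2.32 to 3.03) on the normal diet, the smallest of the 4, and -2.47 (-2.72 to -2.23) on the western diet.

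Hp had 10, 402, 1178 and 118 UMIs, or 3.08 (1.48 to 5.67), 91.5 (82.8 to 101), 242 (229 to 257) and 29 (24 to 34.7) CPM. WT/ApoE-/- western diet had the highest level of this haemoglobin-binding gene, and WT normal diet the lowest. The log2 ratios were 4.82 (4.0 to 5.96) and -3.06 (-3.35 to -2.79).

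Lcn2 had 9, 334, 1500 and 384 UMIs, or 2.77 (1.27 to 5.27), 76.1 (68.1 to 84.7), 309 (293 to 325) and 94.2 (85 to 104) CPM. Here LysM-DKO/ApoE-/- western diet ranked second, above LysM-DKO normal diet, but 1 of its barcodes held 245 of the 384 UMIs. The log2 ratios were 4.70 (3.83 to 5.92) and -1.71 (-1.88 to -1.55).

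**Figure D1:**
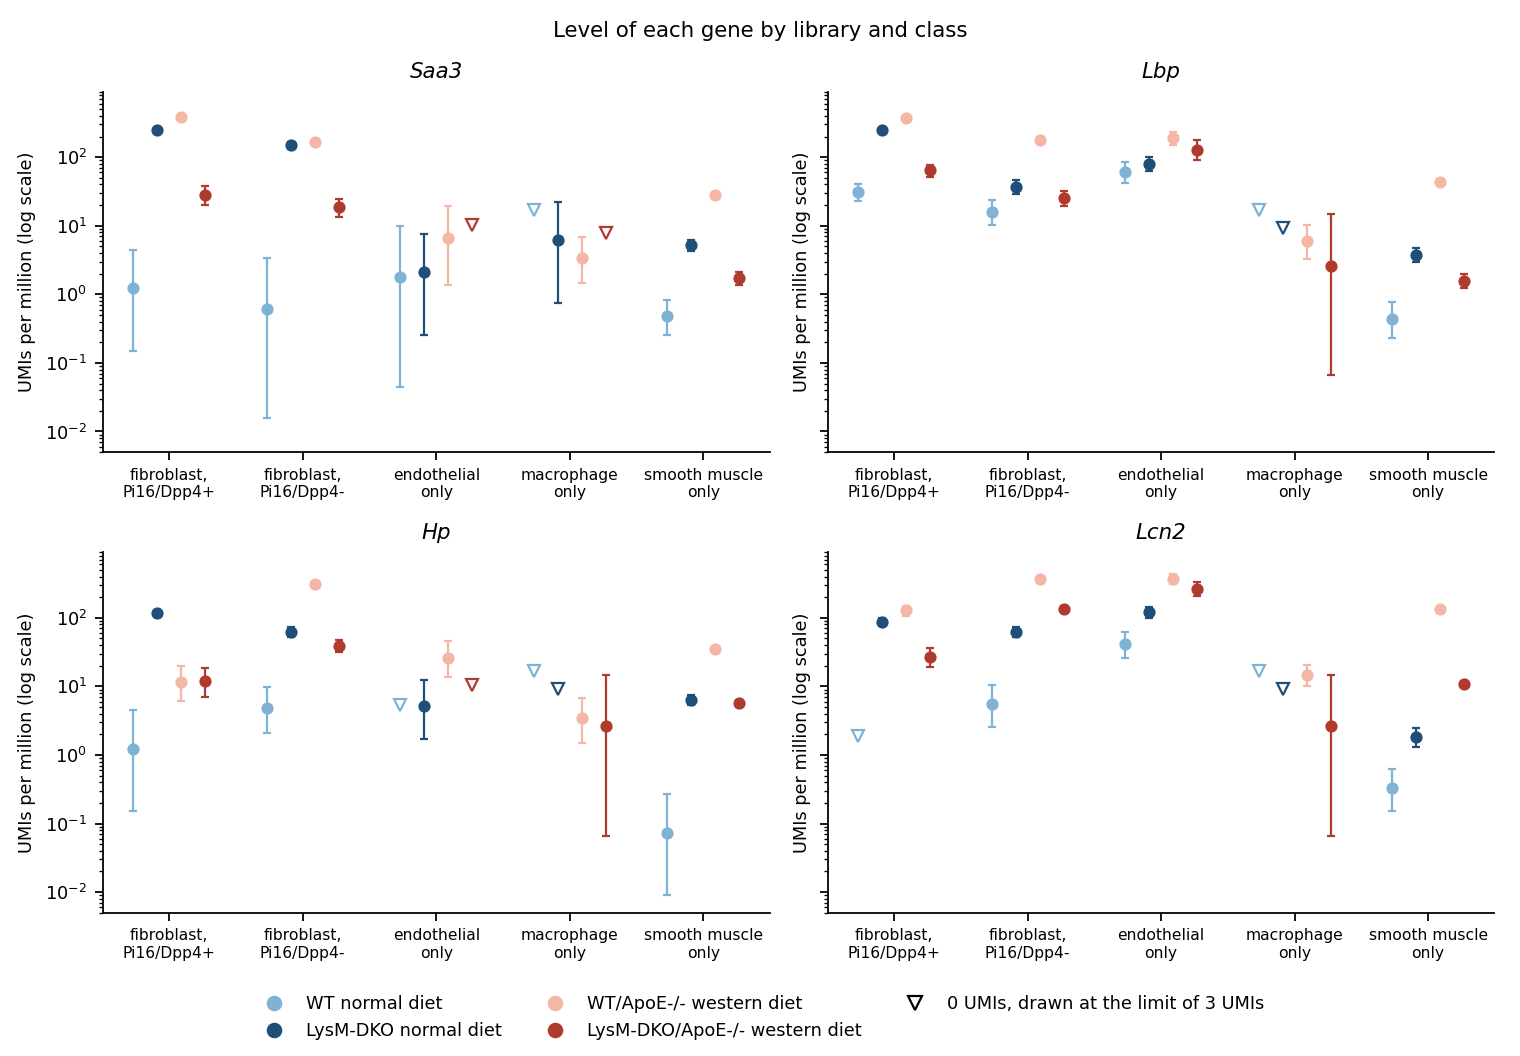
CPM (log scale) of each gene in 2 classes of fibroblasts, split by whether a barcode had a UMI of Pi16 or Dpp4, and in barcodes meeting the rule of 1 other class only; points are 1 library each, bars 95% exact Poisson intervals, and open triangles 0 UMIs drawn at the limit of 3 UMIs. Saa3 in fibroblasts with Pi16 or Dpp4 runs from 1.24 in WT normal diet to 379 in WT/ApoE-/- western diet, and all 4 genes are lower in LysM-DKO than in WT smooth muscle barcodes on the western diet.

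The molecules were spread very unevenly over the fibroblasts. In LysM-DKO normal diet the richest 1% of the fibroblasts (9 barcodes) held 98.7% of the Saa3 UMIs, 96.1% of Lcn2, 85.8% of Hp and 64.1% of Lbp. In WT/ApoE-/- western diet, the richest 1% (8 barcodes) held 56.2% of Saa3, 34.5% of Lcn2, 69.3% of Hp and 23.4% of Lbp, so the level there came from more barcodes. In LysM-DKO/ApoE-/- western diet the same share of barcodes held 100%, 87.2%, 91.5% and 16%. Lbp was the most evenly spread of the 4 by this share in LysM-DKO normal diet and WT/ApoE-/- western diet; in the other libraries the share is 100% wherever a gene was in no more barcodes than the richest 1%, as Saa3 was in both.

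**Figure D2:**
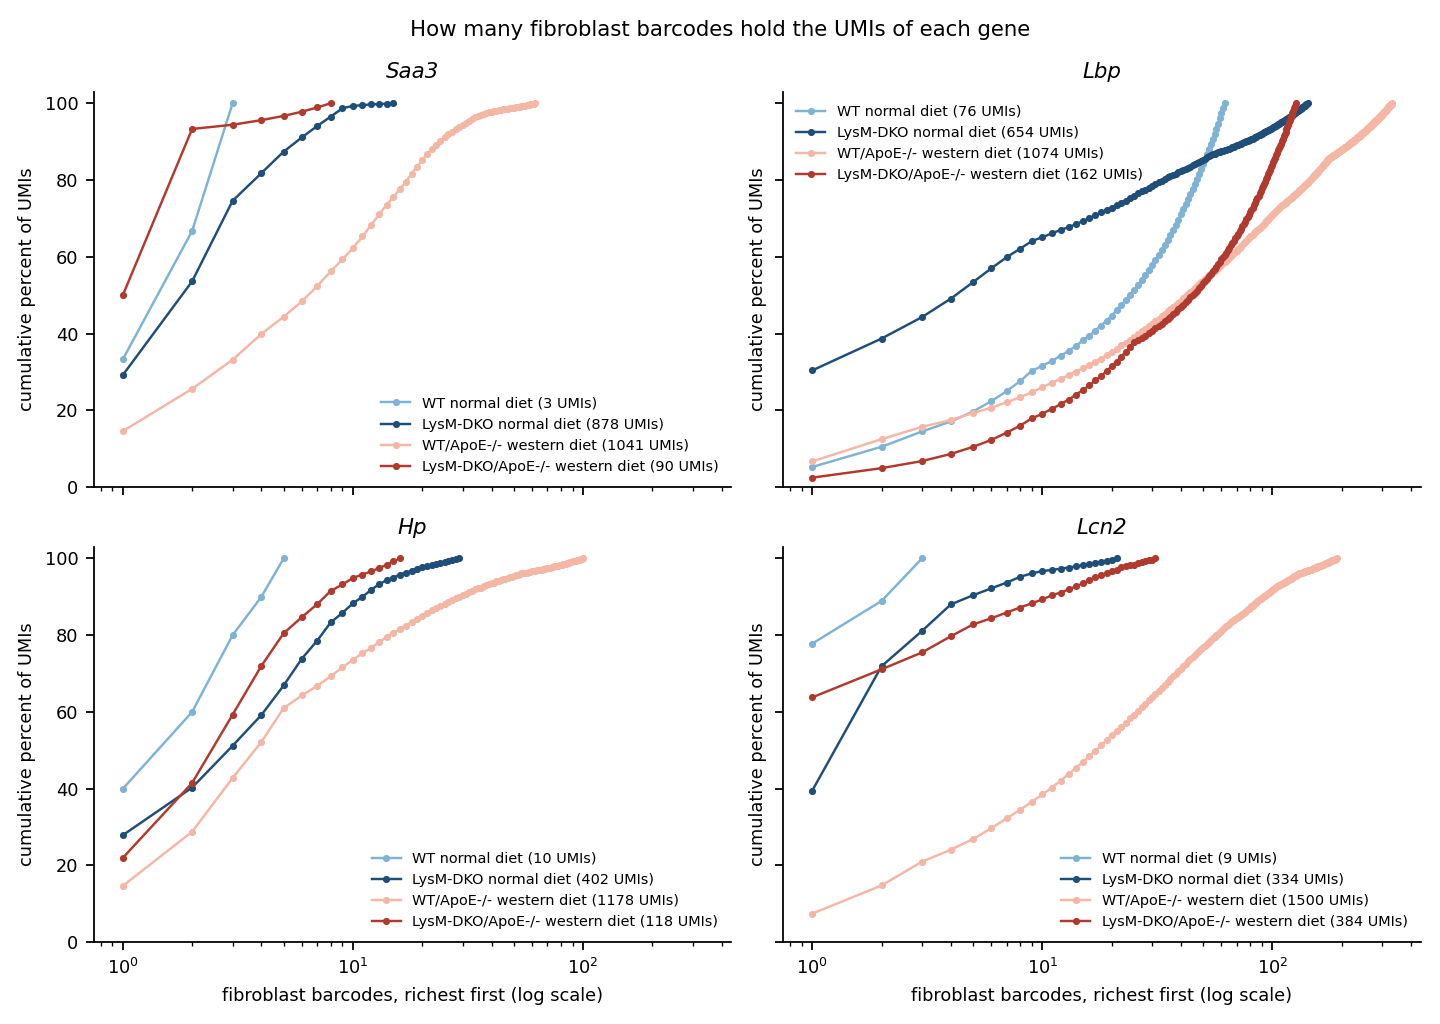
Cumulative percent of the UMIs of each gene against the number of fibroblast barcodes, ranked from the richest (log scale), 1 line per library. For Saa3, 15 barcodes carry all 878 UMIs in LysM-DKO normal diet, whereas 62 carry the 1041 UMIs of WT/ApoE-/- western diet; the Lbp lines climb more slowly.

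On the normal diet, the share of fibroblasts with at least 1 UMI differed less between the genotypes than the levels. Saa3 was found in 0.439%, 1.78%, 8.55% and 1.11% of fibroblasts, Lbp in 9.08%, 16.8%, 45.5% and 17.5%, Hp in 0.732%, 3.44%, 13.8% and 2.22%, and Lcn2 in 0.439%, 2.49%, 26.2% and 4.31%. With every barcode thinned to 1000 UMIs, Saa3 was in 0%, 1.07%, 5.1% and 0.417%, Lbp in 2.05%, 6.17%, 17.8% and 5.14%, Hp in 0.439%, 1.66%, 5.24% and 0.972%, and Lcn2 in 0%, 0.949%, 11.9% and 1.25%; 0 of 683 barcodes allows a share of up to 0.439%. WT/ApoE-/- western diet stood above the other libraries for each gene, thinned or not. For comparison, macrophage-only barcodes of that library (median 3462 UMIs against 4521 in fibroblasts) had a Saa3 UMI in 1.49%, Lbp in 2.43%, Hp in 1.31% and Lcn2 in 3.92%, all below the fibroblasts. Smooth muscle-only barcodes there, thinned, had Saa3 in 2.24%, Lbp in 4.33%, Hp in 2.87% and Lcn2 in 8.96%. Thinned barcodes that met only the fibroblast rule had 4.12%, 21.3%, 4.6% and 7.75%. Free RNA was not measured, so its part in these shares was not tested. In LysM-DKO normal diet, 2 of 76 macrophage-only barcodes (2.63%, 0.32% to 9.18%, exact binomial interval) had a Saa3 UMI, so there the Saa3 share of fibroblasts does not stand above theirs. The most Saa3 UMIs in 1 barcode of that library was 256 in fibroblasts, against 1 in macrophage-only barcodes.

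Fibroblasts with at least 10 UMIs of the 4 genes together numbered 1, 18, 98 and 12, and held 10.2%, 88.4%, 81.5% and 69.1% of the UMIs of these genes in fibroblasts. Their median depth was 10018, 10004, 10622 and 10988 UMIs, against 3999 to 4279 in the other fibroblasts, and deeper barcodes reach a fixed number of UMIs more easily. Of the 18 and the 98, 1 each was among the barcodes scored as doublets, which made up 7.24% and 5.38% of all fibroblasts in those libraries. In LysM-DKO normal diet the richest barcode had 256 Saa3, 199 Lbp, 19 Hp and 132 Lcn2 UMIs of 23536 in all, and the next 63, 54, 112 and 31 of 23111. Other rich barcodes held mostly 1 gene. Of these, 1 had 215 Saa3 UMIs with 1 of Lbp, 7 of Hp and 3 of Lcn2. Another had 108 Lcn2 UMIs with 5 of Lbp and none of Saa3 or Hp. Several of the genes were therefore high together in some barcodes, and 1 gene predominated in others.

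The counts of barcodes with a pair of the genes differed between libraries. In LysM-DKO normal diet, all 8 fibroblasts with at least 5 Lcn2 UMIs also had at least 5 of Lbp, and 7 of the 10 with at least 5 Saa3 UMIs had at least 5 of Hp. In WT/ApoE-/- western diet, 33 of the 725 fibroblasts had at least 5 UMIs of Saa3, 31 of Hp and 2 of both. Genes found in so few barcodes share few even when unrelated, and whether Saa3 and Hp avoid each other was not tested. Lcn2 there overlapped with each of the others, in 13 barcodes with Saa3, 20 with Lbp and 17 with Hp, of 68 with at least 5 Lcn2 UMIs. After thinning to 1000 UMIs, Hp in that library was at 27 UMIs per 1000 barcodes with a Saa3 UMI and 126 per 1000 without. The 27 stands for 1 Hp UMI in 37 barcodes. Taken the other way, Saa3 was at 395 per 1000 barcodes with a Hp UMI and 303 per 1000 without. Lbp was at 730 per 1000 barcodes with a Saa3 UMI and 196 without, and Lcn2 at 1054 and 156. In LysM-DKO/ApoE-/- western diet 1 barcode had at least 5 UMIs of a pair, Hp and Lcn2. These are counts of barcodes within 1 library each, and whether the pairings differ between genotypes was not tested.

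The barcodes rich in these genes had some other genes in common in the 2 libraries with the most of them, and differed in others. In LysM-DKO normal diet, the 18 had 4831 CPM of complement C3 against 998 in the other fibroblasts, 969 against 78.9 of the protease inhibitor gene Serpina3n, and 40.7 against 3.6 of Lrg1. In WT/ApoE-/- western diet the 98 had 1472 against 814 of C3, 631 against 336 of Serpina3n and 90.7 against 34.7 of Lrg1. The adhesion gene Vcam1 was likewise higher in both, at 1236 against 440 and 2236 against 1245, as was the lubricin gene Prg4, at 611 against 78.4 and 591 against 136. Col1a1, a collagen gene, was at 7583 against 2065 in the first library and 8657 against 7735 in the second. In the first, Col1a2 was also higher, at 5782 against 2109, and the other fibroblast markers were lower. Gsn was at 3056 against 11571, Dcn at 7511 against 9162 and Serpinf1 at 829 against 1225. Pdgfra was at 177 against 362 and Lum at 1376 against 1554. In the second, Gsn was at 920 against 2752, Pdgfra at 337 against 366 and Col1a2 at 6278 against 6343. Dcn was higher there, at 9270 against 8341. Spp1, the osteopontin gene of plaque macrophages and modulated smooth muscle cells, was at 199 and 122 CPM in LysM-DKO normal diet. In WT/ApoE-/- western diet the 98 had 33276 CPM of Spp1 against 7102, 7453 against 4246 of Lum, and 188 against 747 of Serpinf1, a gene of the fibroblast rule itself. Of these 98, 74 were among the 307 fibroblasts of that library with at least 5 Spp1 UMIs or 3 of the cartilage genes, which made up 42.3% of its fibroblasts, against 12.4%, 15.4% and 18.1% in the others. Without such barcodes the Lcn2 ratio on the western diet was -2.81, against -1.71 with them, and that of Lbp on the normal diet 2.18. In LysM-DKO/ApoE-/- western diet the barcode with 245 Lcn2 UMIs also had 532 of Spp1, 53 of Comp and 37 of Sox9. Adipoq and Car3, adipocyte genes, were found together with Hp in 1 of the 18 barcodes of LysM-DKO normal diet, with 25 Adipoq and 32 Hp UMIs. The part of these other genes' cells in the levels was not tested beyond leaving out the barcodes.

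Fibroblasts with a UMI of Pi16 or Dpp4, genes of adventitial progenitor-like fibroblasts, numbered 334, 419, 247 and 324, and those without 349, 424, 478 and 396. Saa3 was at 1.24, 246, 379 and 28.1 CPM with Pi16 or Dpp4, and at 0.615, 148, 164 and 18.5 without. Lbp was at 30.9, 246, 368 and 64.1, and at 16, 37.1, 176 and 25.1. Both genes were thus higher in the class with Pi16 or Dpp4 in each library, though at Saa3 in WT normal diet this compares 2 UMIs with 1. In LysM-DKO normal diet, 8 barcodes held the 576 Saa3 UMIs with Pi16 or Dpp4, 1 of them 256. The 302 without came from 7 barcodes, 1 of which held 215. In LysM-DKO/ApoE-/- western diet, 1 barcode held 39 of the 43 Saa3 UMIs with Pi16 or Dpp4, and another 45 of the 47 without. The 2 intervals overlapped there (20.3 to 37.9 and 13.6 to 24.6 CPM). In WT/ApoE-/- western diet the share of barcodes with a Saa3 UMI had the other order, 6.88% with Pi16 or Dpp4 and 9.41% without. Hp and Lcn2 had another order on the western diet. Hp was at 1.24, 117, 11.5 and 11.8 with Pi16 or Dpp4, and at 4.92, 62.1, 312 and 39.3 without. The opposite Hp ratios did not hold in the class with Pi16 or Dpp4: its western diet log2 ratio was 0.02 (-1.07 to 1.19), from 13 and 18 UMIs. Lcn2 was at 0, 88.3, 128 and 26.8 with Pi16 or Dpp4 and at 5.53, 62.1, 363 and 135 without. On the normal diet its level with Pi16 or Dpp4 was at least 47.6-fold higher in LysM-DKO, with 207 UMIs against the limit of 3 UMIs that a count of 0 allows. That bound rests on few barcodes: 5 held 200 of the 207 UMIs and 1 of these 132, and 1 UMI was left without barcodes that met a second class rule.

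Other classes were counted over barcodes that met 1 rule only. Endothelial-only barcodes (152, 276, 82 and 51) had Lbp at 60.4 (41.9 to 84.5), 79.4 (62.5 to 99.3), 191 (153 to 235) and 128 (90.4 to 177) CPM, and Lcn2 at 40.9 (25.9 to 61.4), 120 (99.1 to 144), 370 (316 to 430) and 264 (208 to 330). The Lbp ratio there was 0.38 (-0.21 to 1.02) on the normal diet, an interval that includes 0, and Lcn2 was at 1.53 (0.90 to 2.27). On the western diet the endothelial-only ratios were -0.56 for Lbp, from 87 and 37 UMIs, and -0.48 (-0.90 to -0.09) for Lcn2, against -2.47 and -1.71 in fibroblasts. Lcn2 was higher in endothelial-only barcodes than in fibroblasts in each of the 4 libraries. In WT/ApoE-/- western diet the 2 intervals overlapped (316 to 430 and 293 to 325 CPM), and 1 barcode held 57 of the 169 endothelial-only UMIs. Lbp was higher in endothelial-only barcodes in WT normal diet and in LysM-DKO/ApoE-/- western diet, and higher in fibroblasts in LysM-DKO normal diet. These fibroblasts include barcodes that met a second rule. Barcodes that met only the fibroblast rule had Lbp at 24.6, 79.3, 299 and 53.6 CPM. Against these, the 2 classes were alike in LysM-DKO normal diet, and fibroblasts were higher in WT/ApoE-/- western diet. Saa3 had 1, 2, 3 and 0 UMIs in endothelial-only barcodes.

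Smooth muscle-only barcodes (4552, 4546, 8964 and 6651) had lower values of each gene than all fibroblasts of the same library, part of which met a second rule, and the same direction of the ratios. Lcn2 was at 0.333 (0.152 to 0.632), 1.84 (1.32 to 2.5), 133 (129 to 137) and 11 (10.1 to 12) CPM, and Saa3 at 0.481, 5.21, 28.1 and 1.74. Barcodes that met only the fibroblast rule had Lcn2 at 0, 4.92, 222 and 13.8 (9.08 to 20) CPM. Against these, Lcn2 was not lower in smooth muscle-only barcodes of WT normal diet, and the intervals overlapped in LysM-DKO/ApoE-/- western diet. Saa3, Lbp and Hp stayed lower, though Saa3 in WT normal diet had 2 UMIs in those fibroblasts. Lbp was at 0.444, 3.77, 43.5 and 1.57, and Hp at 0.074, 6.38, 35.6 and 5.71. Of the WT/ApoE-/- western diet smooth muscle-only barcodes, 15.8% had a Lcn2 UMI at a median depth of 2224, against 0.962% in LysM-DKO/ApoE-/- western diet at 6972. Barcodes with at least 10 UMIs of the 4 genes numbered 389 in WT/ApoE-/- western diet, and 152 of these met only the smooth muscle rule. Macrophage-only barcodes (36, 76, 536 and 85), like neutrophils a myeloid class in which the LysM promoter is active, had at most 14.6 CPM of any of the 4 genes. Neutrophils, known for Lcn2 and Hp in their granules, were few: 6, 17, 20 and 2 barcodes carried their genes, and in the first 3 libraries these had Lcn2 at 447, 725 and 255 CPM and Hp at 172, 308 and 287. The 2 barcodes of LysM-DKO/ApoE-/- western diet held 2666 UMIs in all, 1 of them Hp and none Lcn2, which allows up to 1125 CPM of Lcn2. Saa3 had 10 UMIs in 3 of the 20 in WT/ApoE-/- western diet (319 CPM) and 0 in the others, and Lbp 0 in all.

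The size of the ratios in fibroblasts depended on the rich barcodes. Without the fibroblasts with at least 10 UMIs of the 4 genes, the log2 ratios on the normal diet were 1.35 for Saa3, 1.17 for Lbp, 1.02 for Hp and 1.83 for Lcn2, and on the western diet -3.32, -1.82, -1.93 and -2.30. With at most 1 UMI counted per barcode they were 1.71, 0.75, 1.99 and 2.18, and -2.62, -1.13, -2.35 and -2.34. The normal diet ratio of Saa3 was thus 1.35, on 3 and 11 UMIs, in place of 7.53 without the rich barcodes, whereas that of the western diet stayed within its interval. Barcodes that met a second rule carried most of the Lcn2 of LysM-DKO normal diet: fibroblast-only barcodes had 4.92 CPM there, and 0, 222 and 13.8 in the other libraries.

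**Figure D3:**
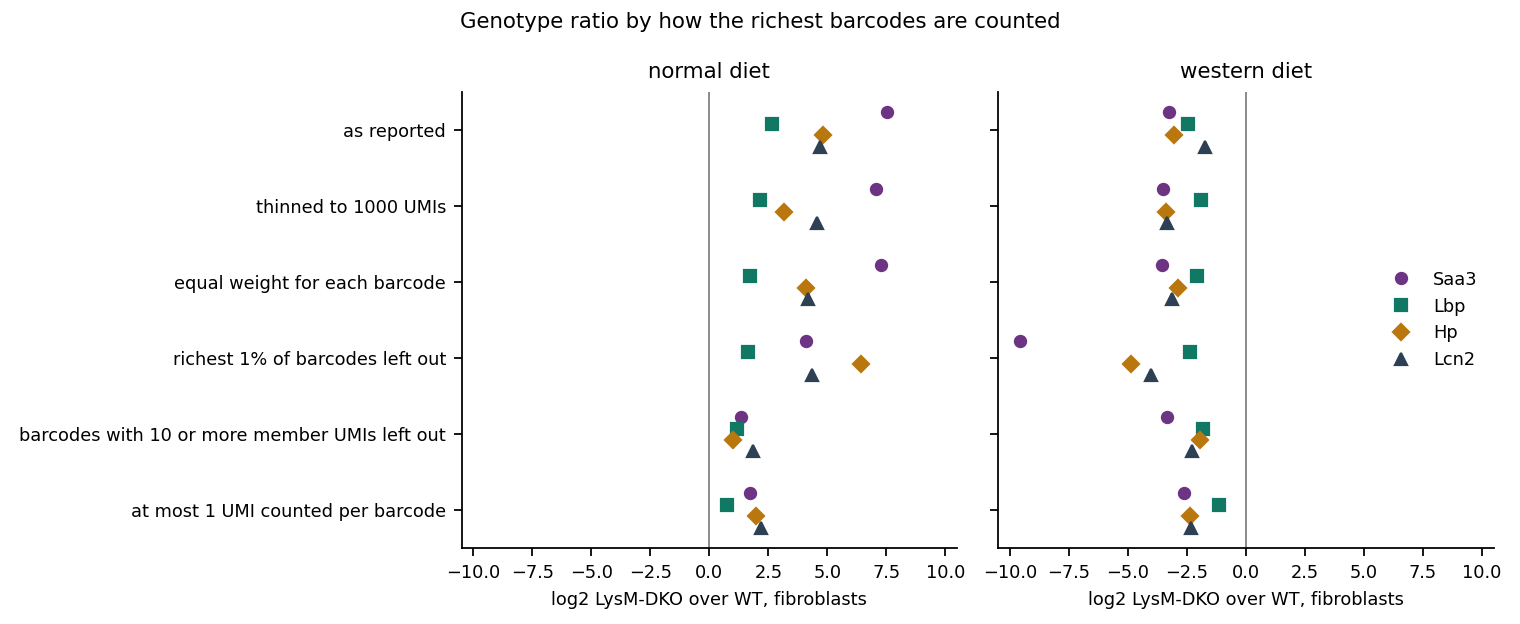
Log2 ratio of LysM-DKO to WT in fibroblasts for each gene under 6 ways of counting the richest barcodes, on the normal diet (left) and the western diet (right). The normal diet points move from 2.66 to 7.53 as counted to between 1.02 and 1.83 without barcodes of at least 10 UMIs of the 4 genes; the Saa3 point at -9.57 sets 456 UMIs against 0 and is fixed by the 0.5 UMIs added.

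Pathway genes were counted in 7 lists by the same 2-fold rule, with the medians read against an all-gene median of 0.05 on the western diet and of about none on the normal diet, and the counts against the shares of all genes given above. Of 25 other acute-phase genes, 13 had enough UMIs on each diet; 3 were at least 2-fold higher in LysM-DKO on the normal diet (median log2 ratio 0.53), where 2.78% of all genes were, and 5 at least 2-fold lower on the western diet (median -0.80), where 3.65% of all genes were. Serpina3n and Lrg1, which codes for a leucine-rich glycoprotein of plasma, were in both sets. The Serpina3n level was 43.2, 124, 409 and 187 CPM, which gave log2 ratios of 1.51 on the normal and -1.13 on the western diet. Lrg1 had 1.54, 5.46, 48.5 and 10.3 CPM and ratios of 1.72 and -2.22. The first of these rests on 5 and 24 UMIs, with an interval of 0.41 to 3.57 that reaches below 2-fold. Il1rn, the interleukin 1 receptor antagonist, was higher on the normal diet on 5 against 15 UMIs. The others lower on the western diet were C3 (-1.41), Itih4 (-2.20) and Serpina3g (-2.03). Without the barcodes of at least 10 UMIs of the 4 genes, Serpina3n was at 0.87 and -0.84 and Lrg1 at 1.13 and -2.47. Serpina3g was then at -0.27 on the western diet, and 3 of the list were at least 2-fold lower there.

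Of the cytokines and receptors, which include Il6, Il1b, Tlr4 and Cd14, 0 of 18 were at least 2-fold higher and 1 (Tnf) lower on the normal diet, and on the western diet 0 of 19 higher and 2 (Il1b and Ly96) lower; of all genes, 1.63% and 3.65% were lower by as much. Ly96 was at -0.58 without the plaque or cartilage barcodes. Il1b had 27 and 4 UMIs on the western diet, and 1 and 0 without those barcodes. Il6 was at 291, 349, 37.4 and 61.3 CPM. None of the 12 transcription and feedback genes passed 2-fold on either diet, with medians of -0.14 and 0.22; Stat3 was at 324, 265, 221 and 255, and Socs3, which STAT3 induces, at 210, 149, 137 and 175. Of 9 chemokines and adhesion genes, Cxcl5 was lower on the normal diet, and on the western diet Cxcl2 (1.09) and Ccl2 (1.06) were higher and Cxcl5, Cxcl10 and Vcam1 lower, against 3.16% and 3.65% of all genes. Without the barcodes rich in the 4 genes, Cxcl2 and Ccl2 were each at 0.85 and Cxcl10 at -0.92, and without plaque or cartilage barcodes at 0.06, 0.12 and -0.93, so that these 3 no longer passed 2-fold. Cxcl5 had 33 and 4 UMIs on the western diet. Without the rich barcodes it had 8 and 4 (-1.01), under the minimum of 20 UMIs. The receptors of the 4 genes' products had 3 and 2 genes with enough UMIs, and 0 passed 2-fold. Of 6 glucocorticoid-responsive genes, 1 was higher on each diet, Fkbp5 (1.35) on the normal and Zbtb16 (1.27) on the western diet. None of the 15 dissociation stress genes passed 2-fold, with medians of -0.18 and 0.36.

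**Figure D4:**
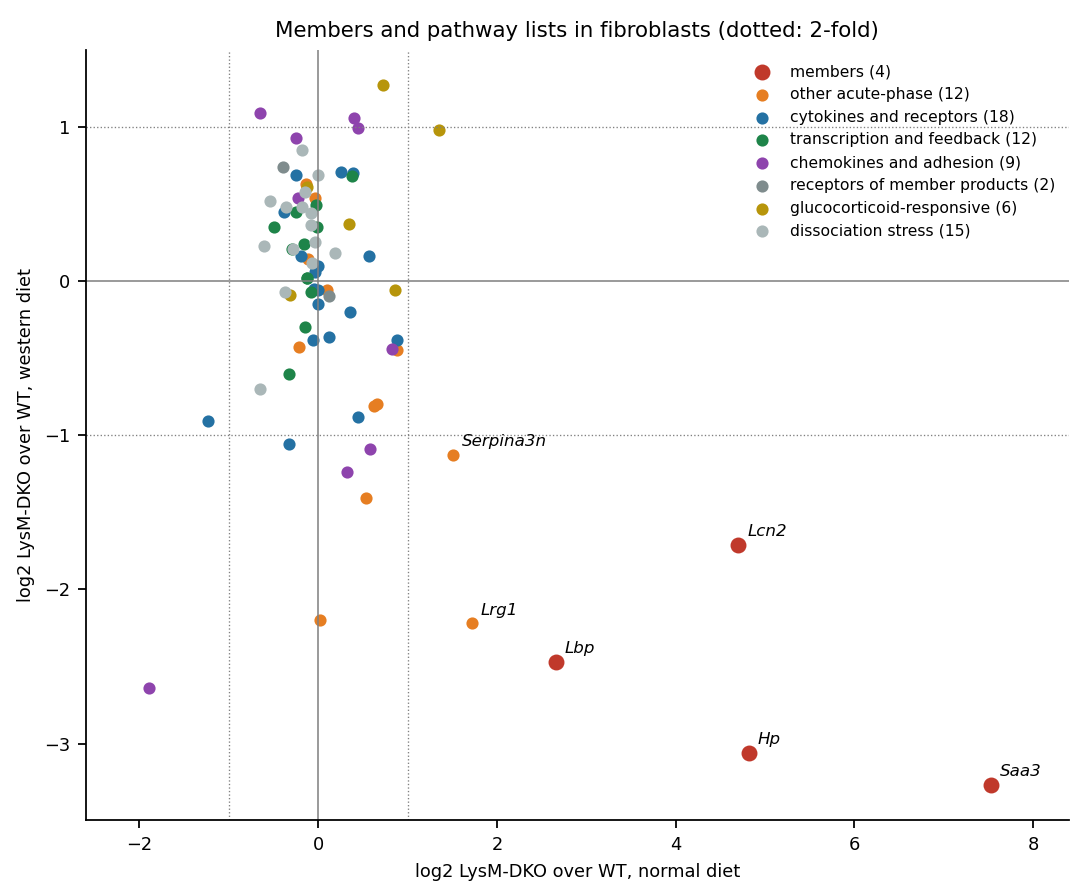
Log2 ratio of LysM-DKO to WT in fibroblasts on the western diet against that on the normal diet, 1 point per gene with at least 20 UMIs on both diets, coloured by list; dotted lines mark 2-fold. The 4 genes lie at the lower right with Lrg1 and Serpina3n, and most other points lie within 2-fold.

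Over 20 points (4 libraries by 5 classes, which share libraries and depth), the genes with the most similar log2 level to each of the 4 were sought among 7873 genes by Pearson's r. The classes were not exclusive here, so a barcode that met several rules enters several points, and r partly compares the same molecules. In LysM-DKO normal diet, for example, Saa3 had 685 UMIs in smooth muscle barcodes, of which 116 were in smooth muscle-only barcodes. Saa3 was most like Lbp (r = 0.868), Hp (0.852), Dram1 (0.837), Cdkn2c (0.804) and Lcn2 (0.803). Lbp was most like Pla1a (0.923), Cst6 (0.904), Ly6a (0.873), Saa3 and Bok (0.860). Hp was most like Chad (0.871), a cartilage gene, then Saa3, Lcn2 (0.808), Pigx (0.779) and Zdhhc3 (0.779), and Lcn2 was most like Ddb1 (0.854), Cdkn2c (0.846), 1110008P14Rik (0.843), Zmpste24 (0.824) and Galnt1 (0.824). Lbp with Hp had r = 0.724 and Lbp with Lcn2 r = 0.689. The 4 genes were chosen for a shared direction in fibroblasts of these libraries, which fixes part of the likeness among them, so r between them is a description only.

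The 4 genes were among the 10 genes with the largest opposite ratios, of 1558 with at least 100 UMIs on each diet, a rank by the values they were chosen on. Among all 2642 opposite genes with at least 20 UMIs on each diet, Saa3 ranked 7, Hp 8, Lbp 12 and Lcn2 22. Above them in the shorter ranking stood Cxcl13, a chemokine for B cells, with log2 ratios of 5.50 and -5.55 (4.01, 188, 40.1 and 0.736 CPM), and the adhesion gene Chl1 with 5.63 and -5.44 (0.308, 22.8, 26.5 and 0.491). Without the barcodes rich in the 4 genes, Cxcl13 was at 5.26 and -3.01 and Chl1, with 13 UMIs left in LysM-DKO normal diet, at 2.80 and -4.89. The Wnt inhibitor Wif1 was at 11.7, 48.3, 50.8 and 10.1, Plac8 at 54, 215, 52.9 and 12, the chemokine Cxcl14 at 23.4, 92, 48.3 and 2.45, and Cd74, the invariant chain of antigen presentation, at 87.2, 266, 92.4 and 25. The B cell list moved in the same direction as Cd74, at 13.3, 33.7, 5.97 and 1.72 CPM in fibroblasts, and its part in Cd74 was not tested.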

How the data were processed

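Aortas were digested with collagenases and liberase and made into 10x Genomics 3′ libraries, per the labels' protocols. The deposited matrices hold UMI counts per gene and barcode; they were made by the authors with Cell Ranger, 6.0.1 for the normal diet and 6.1.2 for the western diet per the file headers, and Cell Ranger 6.1.2, Seurat 4.1.0 and mm10 per the submitters' processing notes.

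UMI counts were summed per library and class over kept barcodes; other classes needed 5 UMIs of C1qa, C1qb and C1qc (macrophage), 2 of Pecam1 and Cdh5 (endothelial) or 3 of Myh11 and Cnn1 (smooth muscle). Ratios add 0.5 UMIs to each sum, and their 95% intervals are exact binomial. Doublets were scored with scrublet in scanpy 1.11.5 and kept, and left out as an alternative. Python 3.11.15, numpy 2.4.6, pandas 2.3.3, scipy 1.17.1 and matplotlib 3.10.9 were used, and the ratio script was tested on simulated data. With 1 library a group there is no test of genotype.

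Genes named beside the 4 are the list genes past 2-fold in opposite directions on the 2 diets, the 5 most similar to each, and the 10 with the largest opposite ratios; other list genes, the genes of rich barcodes and single barcodes were named after their values were seen. The genes and lists were chosen with earlier results of these data known. Promoter windows of Saa3 and Lcn2 come from RefSeq; 2 of the 4 genes matched.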

Additional observations from a re-analysis of the deposited data

Results flagged for a closer look

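Each gene here lay higher in LysM-DKO than in WT fibroblasts on the normal diet and lower on the western diet; the difference between the diets was not tested, as each rests on 1 library a group. The log2 ratios on the normal and the western diet were 7.53 and -3.27 for Saa3, 2.66 and -2.47 for Lbp, 4.82 and -3.06 for Hp, and 4.70 and -1.71 for Lcn2, which were chosen for this pattern. Among the other acute-phase genes they were 1.51 and -1.13 for Serpina3n and 1.72 (on 5 and 24 UMIs) and -2.22 for Lrg1. Among the genes ranked by opposite ratios they were 5.50 and -5.55 for Cxcl13, 5.63 and -5.44 for Chl1, 2.03 and -2.32 for Wif1, 1.99 and -2.12 for Plac8, 1.97 and -4.23 for Cxcl14, and 1.61 and -1.88 for Cd74.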

How the results depend on the processing

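In fibroblasts the direction of each of the 8 ratios held under all 19 alternatives, 76 values a diet; the genes were chosen for that direction. Of these, 20 on the normal and 27 on the western diet lay outside the counting interval of the value given above. The settings on rich, plaque, cartilage, adipocyte or neutrophil barcodes were chosen after seeing the data, apart from leaving out the richest 1%. Values are log2 ratios on the normal, then the western diet. At most 1 UMI per barcode gave 1.71, 0.75, 1.99 and 2.18 for Saa3, Lbp, Hp and Lcn2, then -2.62, -1.13, -2.35 and -2.34. Leaving out barcodes of 10 or more UMIs of the 4 genes gave 1.35, 1.17, 1.02 and 1.83, then -1.82 for Lbp, -1.93 for Hp and -2.30 for Lcn2. On the normal diet, Saa3 and Lcn2 then had fewer than 20 UMIs over the 2 libraries. Leaving out the richest 1% gave 4.1 for Saa3, 1.62 for Lbp and 6.44 for Hp, then -9.57, -4.87 and -4.04 for Saa3, Hp and Lcn2; the sums of Saa3 and Hp in WT normal diet and of Saa3 in LysM-DKO/ApoE-/- western diet are then 0, so these values are set by the 0.5 UMIs added. Without barcodes of a second class Lbp was 1.67 and Hp 3.58, then Saa3 -2.08 and Lcn2 -3.99. Without plaque or cartilage barcodes Lbp was 2.18, then -2.16, Hp -3.46 and Lcn2 -2.81. A fibroblast rule of 2 UMIs gave Hp -1.88 on the western diet, and one of 5 gave Lbp 3.06 and Lcn2 6.63, then Saa3 -3.91, Hp -4.37 and Lcn2 -1.06. Equal weight per barcode gave Lbp 1.73, then -2.08, and Lcn2 -3.13; equal weight of the 2 fibroblast classes gave Hp -2.65 on the western diet. Subtracting the smooth muscle level gave Lcn2 7.13, then -1.01, and Lbp -2.19. Thinning to 1000 UMIs gave Lbp 2.15 and Hp 3.16, then -1.92 for Lbp, -3.37 for Hp and -3.33 for Lcn2. It lowered the share of fibroblasts with a UMI to 0% for Saa3 and Lcn2 and 2.05% for Lbp in WT normal diet, to 6.17% for Lbp, 1.66% for Hp and 0.949% for Lcn2 in LysM-DKO normal diet, to 5.1%, 17.8%, 5.24% and 11.9% in WT/ApoE-/- western diet and to 0.417%, 5.14%, 0.972% and 1.25% in LysM-DKO/ApoE-/- western diet. The causes were not tested. Limits of depth or mitochondrial share, doublets, median-ratio scaling, 1 UMI added and leaving out adipocyte or neutrophil barcodes kept each ratio within its interval. No paired analysis was possible because each group has 1 library.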
